A study of Danio rerio with 14 samples.

Results

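The genes described here are the 6 protein-coding genes of the zebrafish mitochondrial genome whose products are subunits of complexes III, IV and V of oxidative phosphorylation. They were chosen by that role: *mt-cyb* (ENSDARG00000063924) of complex III, *mt-co1* (ENSDARG00000063905), *mt-co2* (ENSDARG00000063908) and *mt-co3* (ENSDARG00000063912) of complex IV, and *mt-atp6* (ENSDARG00000063911) and *mt-atp8* (ENSDARG00000063910) of complex V. The choice was made with earlier results of these data known. Of the 6 genes, 5 have a row among the 19859 genes of the table, and *mt-atp8* has none and was not analysed here. The values come from bulk RNAseq of dissected retinas, with the retinal pigment epithelium (RPE) included, of 7 *chmru848* and 7 wild-type AB (wt) zebrafish at 5 days post fertilisation (dpf). *chmru848* fish are a model of choroideremia and carry a mutation of *chm*, which encodes Rab escort protein 1, in every cell. The mutation is therefore not limited to 1 cell type of the retina, and the labels name no treatment. All 5 genes passed the filter on low values and are given as a normalized count and as a share of the normalized counts of a retina, and their proportions to each other are compared between genotypes.

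Complex III passes electrons from ubiquinol to cytochrome c, and complex IV passes them on to oxygen, with protons pumped across the inner membrane. Complex V, the ATP synthase, lets protons back and makes ATP. Each complex is built from a few subunits made inside the mitochondrion and many more encoded in the nucleus. Vertebrate mitochondrial DNA is transcribed into long RNAs that are cut into single messengers, so that genes transcribed together can still reach different levels through processing and decay. Photoreceptors, which pack mitochondria into their inner segments, are among the largest users of ATP in the retina. On the mitochondrial genome *mt-co1* and *mt-co2* lie upstream of *mt-atp8*, *mt-atp6* and *mt-co3*, and *mt-cyb* lies far downstream, beyond the genes of complex I. The reading frames of *mt-atp8* and *mt-atp6* overlap and *mt-atp6* abuts *mt-co3*, so that reads at these borders had to be divided by the counting.

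The libraries differed between the genotypes in more than these genes. Depth, estimated in M reads, was 14.2 to 29.2 in *chmru848* and 18.0 to 26.3 in wt. Rod and cone markers (7 of 9 listed symbols under 10 identifiers, among them *gnat1*, *gnat2* and opsins) took 0.455 to 2.99% of the normalized counts in *chmru848* retinas and 3.01 to 14.2% in wt retinas, and all 10 had a lower median in *chmru848*. Of the 10, a single rhodopsin-like identifier was at 0, in 1 *chmru848* retina, and the other 9 were above 0 in every retina, as the label retina implies. The most abundant gene, ENSDARG00000080337, took 5.16 to 36.6% in *chmru848* and 3.34 to 13.7% in wt, with 33.4% in *chmru848* replicate 4 and 36.6% in replicate 6. This gene had no symbol among the gene names used, and whether it is itself mitochondrial was not determined. *chmru848* replicates 1, 2 and 4 had 1469 to 1983 genes at the lowest value of the table, against 317 to 628 in wt. The mutated gene *chm* had a median of 282 normalized counts (216 to 492) in *chmru848* and 355 (264 to 432) in wt, overlapping ranges that do not separate the labels. In bulk tissue, fewer cells of a type and less RNA per cell cannot be told apart.

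The 5 genes were among the most abundant of the table. Ranked by mean normalized count over the 14 retinas, *mt-co2* was at place 10, *mt-co1* at 11, *mt-co3* at 13, *mt-cyb* at 18 and *mt-atp6* at 21. Because longer genes collect more reads, these places do not order the genes by number of transcripts. The lowest value of any of them in any retina stood for about 42877 estimated reads. Were all reads independent, counting error would be 0.483% or less, small beside the spread between retinas. Error from library preparation was not estimated. Together they took 4.23% ± 1.18 (SD, n = 7) of the normalized counts in *chmru848* retinas, with a lowest share of 2.87%, a median of 4.47% and a highest of 6.32%. In wt retinas they took 3.19% ± 0.606 (SD, n = 7), with a lowest share of 2.33%, a median of 3.35% and a highest of 4.03%. The 2 ranges overlap, and no test was run on the sum. The difference of 1.04 percentage points was 0.691 without *chmru848* replicate 6. With these genes and the 10 most abundant genes left out of the denominator it was 2.08, from means of 6.75% and 4.67%.

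*mt-atp6* was the only gene of this group called higher on the deposited log2 scale. The other genes analysed also had positive differences, and on this scale no gene was tested against another. The fraction of each gene in the sum of the 5 was tested, as given below. *mt-atp6* encodes subunit a of the ATP synthase, which forms the path of the protons through the membrane part of complex V. Its normalized counts in *chmru848* replicates 1 to 7 were 111321, 69407, 105504, 175331, 82368, 205194 and 61265. In wt replicates 1 to 7 they were 38632, 76343, 39127, 63645, 69363, 43272 and 51497. Of the 7 *chmru848* retinas, 5 lay above every wt retina and all 7 above the wt median, while replicates 2 and 7 fell within the upper wt range. The mean was 2.12 times that of wt. On the deposited log2 scale the difference was 1.0 (SE 0.31, adjusted p = 0.0127, limma), a 2.0-fold difference with a 95% confidence interval of 1.29 to 3.12. Over all 19751 tested genes 19.9% were called higher and 23.7% lower by the same test, and 9.97% had a difference at least as large as that of *mt-atp6*.

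As a share of all the normalized counts of a retina, *mt-atp6* separated the genotypes completely. The share was 0.531% ± 0.176 (SD, n = 7) in *chmru848*, from 0.319% through a median of 0.542% to 0.815%. In wt it was 0.255% ± 0.0432 (SD, n = 7), from 0.193% through a median of 0.268% to 0.298%. Every *chmru848* retina was above every wt retina, which was so for 6.39% of all tested genes, and the exact two-sided permutation p of 0.000583 is the smallest that 7 against 7 retinas allow. The separation depended on the denominator. With the genes of this group and the 10 most abundant genes left out of it, the difference was 0.483 percentage points (exact permutation p = 0.00233). This p is above the smallest possible, so the groups then overlapped. The spread was wider in *chmru848*, where replicates 6 and 4 were highest, at 0.815% and 0.689%, and replicate 7 lowest. Replicates 4 and 6 also had the largest shares of ENSDARG00000080337. Without these 2 the difference on the log2 scale was 0.67 and lost its call (adjusted p = 0.0660, limma). The difference in share was then 0.187 percentage points (exact permutation p = 0.00126). Leaving out retinas cannot make separated groups overlap, so this p adds no support. When each retina's count of genes at the lowest value entered as a covariate, the difference was 0.85 (adjusted p = 0.0762, limma), and without the 3 retinas that had most such genes it was 0.95 (adjusted p = 0.0386, limma).

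**Figure D1:**
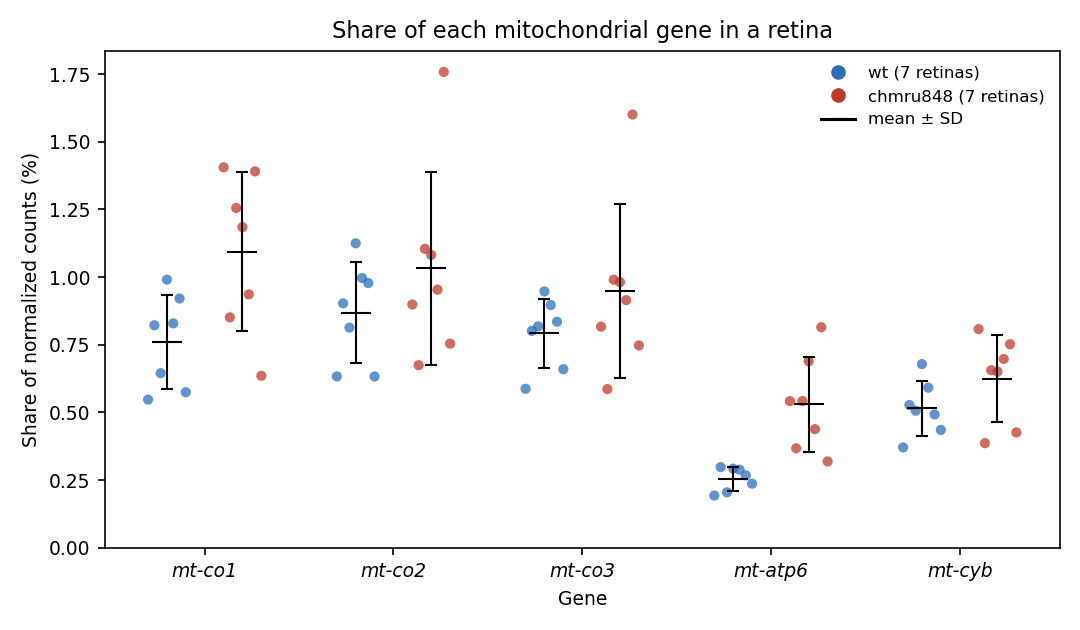
Share of each gene in the normalized counts of a retina, in percent, for 7 wt (blue) and 7 *chmru848* (red) retinas, with the mean and SD in black. The 7 *chmru848* points of *mt-atp6* lie between 0.319 and 0.815%, all above the wt points, while the groups overlap for the other 4 genes.

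None of the 3 complex IV genes passed the test on the deposited scale, and their differences were not tested against that of *mt-atp6*. They encode the 3 core subunits of cytochrome c oxidase. The product of *mt-co1* holds the hemes and the copper centre at which oxygen is reduced, that of *mt-co2* takes the electrons from cytochrome c, and that of *mt-co3* has no metal centre. For *mt-co1* the normalized counts of *chmru848* replicates 1 to 7 were 288598, 160757, 244298, 301335, 175923, 350092 and 122019. Those of wt replicates 1 to 7 were 109473, 210551, 123179, 215518, 199181, 148762 and 124802. In *chmru848*, 4 retinas were above every wt retina and replicate 7 was below the wt median. The difference was 0.50 on the log2 scale (SE 0.32, adjusted p = 0.213, limma), or 1.41-fold with an interval of 0.889 to 2.25.

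The share of *mt-co1* was 1.09% ± 0.293 (SD, n = 7) in *chmru848*, from 0.636 to 1.41%, and 0.762% ± 0.173 (SD, n = 7) in wt, from 0.548 to 0.991%. The ranges overlapped, and the exact permutation p was 0.0251, not adjusted for the 5 genes compared. By this unadjusted threshold 22.2% of all tested genes had a higher share in *chmru848*. The p rose above 0.05 when any of *chmru848* replicates 1 and 6 or wt replicates 1 and 7 was left out (0.0501 to 0.0524 over these 4 exact permutation tests, with differences of 0.281 to 0.302 percentage points). Without the 2 retinas with the largest ENSDARG00000080337 shares it was 0.0985 in the same exact permutation test.

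For *mt-co2*, normalized counts in *chmru848* replicates 1 to 7 were 184542, 127403, 214892, 275239, 179188, 442611 and 144821. In wt replicates 1 to 7 they were 126636, 231302, 155282, 244728, 239397, 157957 and 137485. All but 2 *chmru848* retinas lay inside the wt range, and replicate 6 stood far above the rest. The difference was 0.21 on the log2 scale (SE 0.33, adjusted p = 0.631, limma), or 1.16-fold with an interval of 0.718 to 1.86. The share was 1.03% ± 0.357 (SD, n = 7) against 0.869% ± 0.187 (SD, n = 7), with an exact permutation p of 0.341, and the difference of 0.163 percentage points was 0.0424 without *chmru848* replicate 6.

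*mt-co3* did not pass the test either. Its normalized counts in *chmru848* replicates 1 to 7 were 167749, 110753, 192680, 249761, 171914, 402982 and 143542. In wt replicates 1 to 7 they were 117460, 205231, 156214, 206053, 215410, 134894 and 143313. Replicates 4 and 6 of *chmru848* were above every wt retina and replicate 2 was below them all. The difference was 0.21 on the log2 scale (SE 0.32, adjusted p = 0.620, limma), or 1.16-fold with an interval of 0.729 to 1.83. The share was 0.949% ± 0.321 (SD, n = 7) against 0.792% ± 0.127 (SD, n = 7), with an exact permutation p of 0.279, and the difference of 0.156 percentage points was 0.0474 without *chmru848* replicate 6. Without *chmru848* replicates 4 and 6 the differences of *mt-co2* and *mt-co3* were -0.094 and -0.088, with adjusted p of 0.832 and 0.837 (limma), so that these data give no direction for either gene.

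*mt-cyb* encodes cytochrome b, the subunit of complex III that holds its b-type hemes and its quinone sites. Its normalized counts in *chmru848* replicates 1 to 7 were 165858, 73003, 127634, 165619, 131083, 189367 and 81840. In wt replicates 1 to 7 they were 74148, 135104, 96691, 147615, 142112, 79566 and 94599. In *chmru848*, 3 retinas exceeded every wt retina and replicate 2 was lower than all of them. The difference was 0.25 on the log2 scale (SE 0.30, adjusted p = 0.512, limma), or 1.19-fold with an interval of 0.775 to 1.83. The share was 0.625% ± 0.160 (SD, n = 7) against 0.515% ± 0.10 (SD, n = 7), with an exact permutation p of 0.146.

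Of the 5 genes, 1 was thus called higher and none lower, beside 19.9% and 23.7% of all tested genes. The median difference of all tested genes was -0.06 on the log2 scale, and all 5 genes had a larger one. None of the 5 was without overlap on normalized counts, where 7.57% of all genes had every *chmru848* retina above every wt retina. The call depended on scaling for the other 4: after quantile normalization their differences were 1.37 (*mt-co1*), 1.1 (*mt-co2*), 1.04 (*mt-co3*) and 0.85 (*mt-cyb*), and all 5 genes passed. With median centring and with rescaling to equal totals, *mt-atp6* alone passed.

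Because all 5 messengers come from the same small genome, their proportions can be compared within a retina with no size factor. *mt-atp6* made up 12.4% ± 1.35 (SD, n = 7) of the summed normalized counts of the 5 genes in *chmru848* and 8.04% ± 0.877 (SD, n = 7) in wt. The fractions in *chmru848* replicates 1 to 7 were 12.1, 12.8, 11.9, 15.0, 11.1, 12.9 and 11.1%. In wt replicates 1 to 7 they were 8.28, 8.89, 6.86, 7.25, 8.01, 7.67 and 9.33%. No wt retina reached the lowest *chmru848* retina, with an exact permutation p of 0.000583. Without replicates 4 and 6 the difference was 3.77 percentage points (exact permutation p = 0.00126). Without the 3 retinas with most genes at the lowest value it was 3.71 percentage points (exact permutation p = 0.00303). Leaving out retinas cannot undo a complete separation, so these p-values add no support.

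Fractions sum to 100%, so a larger fraction of *mt-atp6* leaves less for the other 4 genes. *mt-co2* made up 24.2% ± 2.40 (SD, n = 7) in *chmru848* and 27.1% ± 1.04 (SD, n = 7) in wt, lower with an exact permutation p of 0.00932. *mt-co3* made up 22.3% ± 2.71 (SD, n = 7) against 25.0% ± 1.4 (SD, n = 7), with an exact permutation p of 0.0408. Each range overlapped that of wt, and neither p stayed under 0.05 without the 3 retinas with most genes at the lowest value (0.0970 and 0.379, exact permutation test). *mt-cyb*, at 14.9% ± 2.22 (SD, n = 7) against 16.2% ± 1.05 (SD, n = 7), had an exact permutation p of 0.213.

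*mt-co1* had the widest fractions in *chmru848*, 26.1% ± 3.70 (SD, n = 7) against 23.7% ± 1.56 (SD, n = 7) in wt (exact permutation p = 0.159). Replicates 1, 2 and 3 were at 31.4, 29.7 and 27.6%, above the wt maximum of 26.4%. Replicates 6 and 7 were both at 22.0%, within the wt range. The SD of the fraction was larger in *chmru848* than in wt for each of the 5 genes. For *mt-atp6* and *mt-co1* the mean fraction was larger too. The 5 fractions are tied by their sum, and the difference in spread was not tested.

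**Figure D2:**
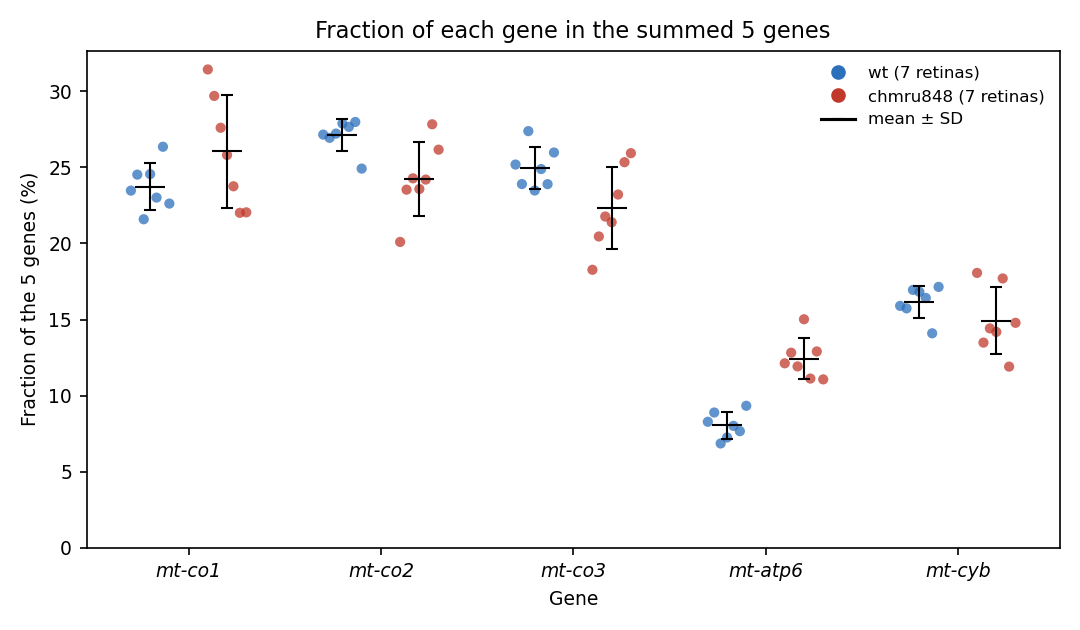
Fraction of each gene in the summed normalized counts of the 5 genes, in percent, for each wt (blue) and *chmru848* (red) retina, with the mean and SD in black. The *mt-atp6* fractions are 11.1 to 15.0% in *chmru848* and 6.86 to 9.33% in wt, and *mt-co1* fractions spread from 22.0 to 31.4% in *chmru848*.

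*mt-atp6* was also set against its downstream neighbour *mt-co3*, and other pairs of the genes to each other, in ratios chosen after the values were seen and given without a test. The ratio of *mt-atp6* to *mt-co3* normalized counts was 0.565 ± 0.102 (SD, n = 7) in *chmru848*, from 0.427 to 0.702, and 0.323 ± 0.0392 (SD, n = 7) in wt, from 0.250 to 0.372. All 7 *chmru848* retinas were above every wt retina in this ratio. The ratio of *mt-co1* to *mt-co2* was 1.1 ± 0.264 (SD, n = 7) in *chmru848* and 0.876 ± 0.0507 (SD, n = 7) in wt, with 5 *chmru848* retinas above every wt retina and 1 below. The ratio of *mt-cyb* to *mt-co3* was 0.682 ± 0.163 (SD, n = 7) and 0.648 ± 0.0399 (SD, n = 7), with 2 *chmru848* retinas above and 2 below the wt range. That of *mt-co2* to *mt-co3* was 1.09 ± 0.0473 (SD, n = 7) and 1.09 ± 0.0860 (SD, n = 7), with every *chmru848* retina inside the wt range. Reads of *mt-atp8*, of which no row was analysed here, overlap those of *mt-atp6*, and how the counting divided them between the 2 genes was not tested.

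The *chmru848* retinas differed from wt in other features too. *chmru848* replicates 5 and 7 had ENSDARG00000080337 at 5.75 and 5.16%, inside the wt range, with 374 and 369 genes at the lowest value, and their *mt-atp6* shares were 0.438 and 0.319%, above the wt maximum of 0.298%. All 7 *chmru848* retinas were above that maximum, so any 2 picked would be. These 2 retinas were picked after their values were seen, and the part of either feature in the *mt-atp6* difference was not tested. Markers of other cells were not tested as lists and are given by their ranges. The neutrophil marker *lyz*, the single gene matched of 2 listed, had 62.3 to 464 normalized counts in *chmru848* and 2.09 to 22.9 in wt. The Müller glia markers *rlbp1a* and *gfap*, 2 of 3 listed, together took 0.00338 to 0.0122% in *chmru848* and 0.0236 to 0.0451% in wt, with a lower median for *rlbp1a* and a higher one for *gfap*. The macrophage markers *apoeb* and *csf1ra*, 2 of 3 listed, took 0.0581 to 0.363% and 0.0396 to 0.206%, overlapping ranges, with *csf1ra* at 0 in 2 *chmru848* retinas and 1 wt retina. The RPE markers *dct*, *tyr* and *pmela*, 3 of 5 listed, took 0.00182 to 0.0465%, a range that encloses the 0.0172 to 0.0329% of wt, and none was at 0. Their summed share had a median of 0.00685% in *chmru848* and 0.0265% in wt, and all 3 had a lower median in *chmru848*. The part of cell composition in the *mt-atp6* result was not tested.

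**Figure D3:**
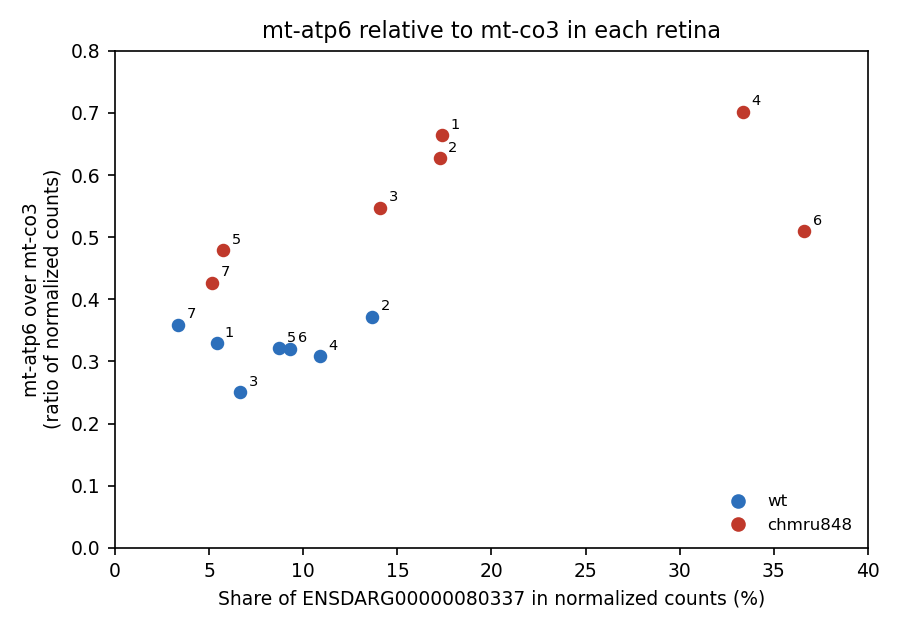
Ratio of *mt-atp6* to *mt-co3* normalized counts (vertical axis) against the share of the most abundant gene, ENSDARG00000080337, in percent (horizontal axis), with 1 point per retina labelled by replicate number. The *chmru848* retinas (red) lie from 0.427 to 0.702 and the wt retinas (blue) from 0.250 to 0.372. All 7 *chmru848* retinas lie above the wt retinas, so replicates 5 and 7, at 5.75 and 5.16% of that gene, had to as well.

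Among retinas of the same genotype the levels of the 5 genes varied together. After subtracting the genotype means, each gene had a Pearson correlation of 0.914 (*mt-cyb*) to 0.957 (*mt-co2*) with the mean of the other 4 over the 14 retinas, on the deposited scale. Those values share a library and a size factor and are given as a description. The 4 genes outside the group that followed its mean most closely, among 11732 genes with a mean of at least 100 normalized counts, were *mt-nd2* (r = 0.944), *si:dkeyp-3b12.10* (r = 0.925), *mt-nd4* (r = 0.914) and *mt-nd5* (r = 0.891). All but *si:dkeyp-3b12.10* are mitochondrially encoded subunits of complex I.

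The complex I genes lie on the same genome. Of the 7 genes, 5 were called higher and none lower, beside 19.9% and 23.7% of all tested genes. They were *mt-nd1* (1.18, SE 0.36, adjusted p = 0.0134), *mt-nd2* (0.92, SE 0.29, adjusted p = 0.0174), *mt-nd4* (0.82, SE 0.31, adjusted p = 0.0385), *mt-nd5* (0.86, SE 0.27, adjusted p = 0.0151) and *mt-nd6* (0.91, SE 0.32, adjusted p = 0.0298), all log2 differences from limma. *mt-nd3* (0.64, adjusted p = 0.129, limma) and *mt-nd4l* (0.44, adjusted p = 0.120, limma) did not pass. The median of the 7 differences was 0.86. For each of the 7 genes the normalized counts of the genotypes overlapped. For *mt-nd1*, with the largest difference, 5 of the 7 *chmru848* retinas lay above the wt median, and these 5 were also above every wt retina. Differences of the complex I genes with retinas left out are not given here. Whether a complex I gene changed more than a complex IV gene was not tested. The libraries keep no strand, so for these genes, *mt-nd6* among them, antisense reads could not be set apart.

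**Figure D4:**
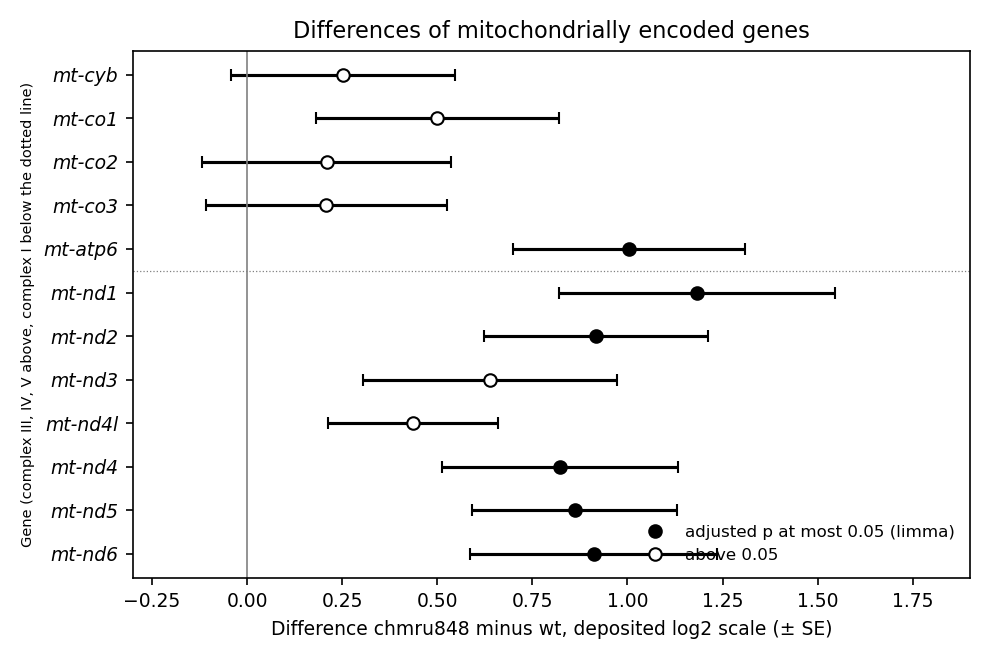
Log2 difference (*chmru848* minus wt, with its SE) of 12 mitochondrially encoded protein-coding genes, with filled points for adjusted p at most 0.05 (limma). *mt-atp6* at 1.0 is filled. *mt-atp6* and the open *mt-co1* at 0.50 lie within the range of the complex I genes (0.44 to 1.18), and *mt-cyb*, *mt-co2* and *mt-co3* lie at 0.21 to 0.25.

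Among the nuclear subunits of the same complexes, 32 of the 41 listed had an identifier. Of these, 2 were called higher, 4 lower and 26 neither, beside 19.9% higher and 23.7% lower over all tested genes. Their median log2 difference was -0.17, beside -0.06 over all tested genes. *uqcr10*, a small subunit of complex III, rose by 1.68 (SE 0.45, adjusted p = 0.00590, limma), although wt retinas reached 1183 normalized counts, within the *chmru848* range of 453 to 1257. *atp5mf*, a membrane subunit of complex V, rose by 1.3 (SE 0.26, adjusted p = 0.000684, limma). In complex IV, *cox4i2*, an isoform of subunit 4, fell by 1.70 (SE 0.31, adjusted p = 0.000230, limma), with 1631 to 7929 normalized counts against 6267 to 16959 in wt. *cox6b1*, a subunit on the side of the intermembrane space, fell by 1.36 (SE 0.34, adjusted p = 0.00328, limma). In complex V, *atp5f1b*, the catalytic beta subunit, fell by 0.76 (SE 0.26, adjusted p = 0.0256, limma). *atp5mc3b*, of the proton-carrying c ring next to subunit a, fell by 0.77 (SE 0.30, adjusted p = 0.0456, limma). Of the complex V subunits measured, *mt-atp6* and *atp5mf* were thus called higher and *atp5f1b* and *atp5mc3b* lower.

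Genes that serve mitochondrial DNA, its messengers and the assembly of their products are given by their own counts. Of 8 genes of mitochondrial transcription, RNA and DNA replication, 3 rose and none fell, beside 19.9% called higher and 23.7% lower over all tested genes. The median difference was 0.41. The 3 that rose were *polrmt*, the mitochondrial RNA polymerase (1.14, adjusted p = 0.00569, limma), *slirp*, whose mammalian product stabilises mitochondrial messengers in a complex with Lrpprc (1.24, adjusted p = 0.000290, limma), and *twnk*, the helicase of mitochondrial DNA replication (0.61, adjusted p = 0.0226, limma). For *slirp* the 554 to 1436 normalized counts in *chmru848* retinas were all above the 219 to 542 in wt. *tfam*, which packs mitochondrial DNA and starts its transcription, was at a mean of 1161 against 1129 normalized counts and was not called.

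Of 12 assembly factors, 6 rose and none fell, beside the same 19.9% and 23.7% over all tested genes, and the median difference was 0.64. *cox17*, a copper chaperone for cytochrome c oxidase, rose by 3.15 (SE 0.50, adjusted p = 6.41e-05, limma), from 28.7 to 852 normalized counts in wt to 1640 to 3607 in *chmru848*. The other factors for complex IV that rose were *sco1* (0.69) and *sco2* (0.77), which carry copper to its *mt-co2* subunit, *cox11* (0.66), which serves the copper centre of its *mt-co1* subunit, and *surf1* (0.74), which acts early in its assembly. *bcs1l* (0.62), which inserts the iron-sulfur protein into complex III, also rose. None of the 3 listed factors for complex V, *tmem70*, *atpaf1* and *atpaf2*, passed the test.

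**Figure D5:**
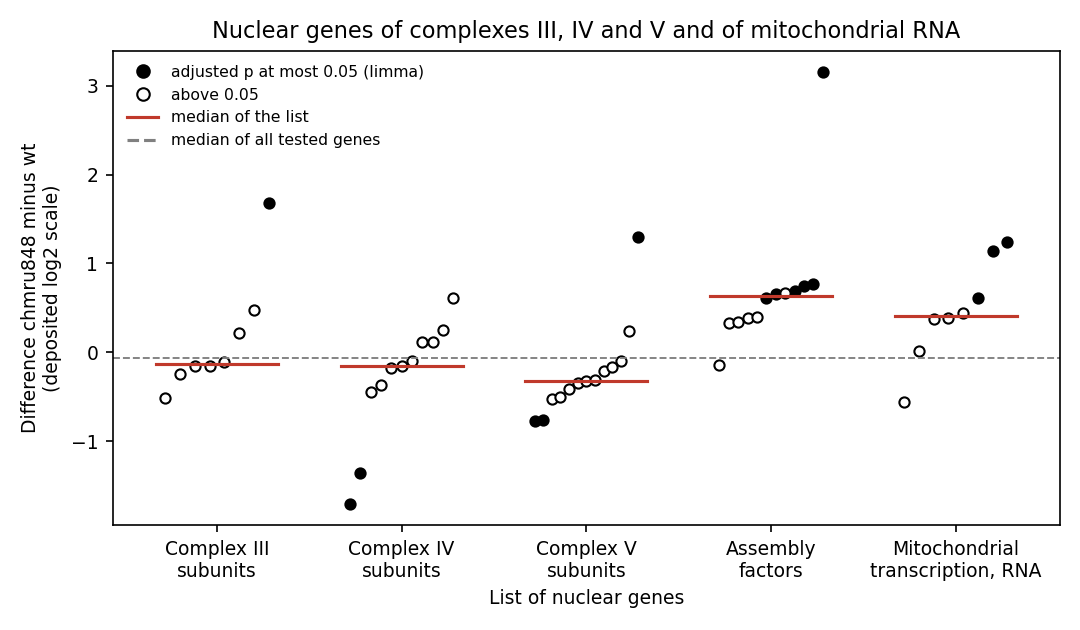
Log2 differences (*chmru848* minus wt) of nuclear genes in 5 lists, with 1 point per gene, filled for adjusted p at most 0.05 (limma), a red line at the median of each list and a dashed line at the median of all tested genes, -0.06. The medians of the subunit lists lie at -0.13 (complex III), -0.15 (complex IV) and -0.32 (complex V), those of assembly factors and mitochondrial RNA genes at 0.64 and 0.41. The list labelled mitochondrial transcription and RNA also holds genes of mitochondrial DNA replication.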

How the data were processed

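Bulk RNAseq of 7 *chmru848* and 7 wt zebrafish retinas was analysed, grouped by the sample labels. Each sample was taken as 1 replicate. Libraries were made by the authors with the SMART-Seq v4 kit, which keeps no strand. According to the paper and the submitters' processing notes, the authors trimmed reads with Trim Galore 0.6.7, aligned them to GRCz11 with STAR 2.7.10a, counted them with RSEM 1.3.3, which divides reads that fit several genes, and normalised them with DESeq2 1.38.3. The deposited log2 values are variance-stabilized, and the settings and gene filter of that step are not given in the sources used here. All 14 columns were used, and they hold no read counts.

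Taking the lowest value, 4.35, to stand for a count of 0, the values were transformed back to normalized counts. Their means differed by a relative 1.63e-14 or less from the base means listed for 250 genes in the supplementary tables. A share is a gene's normalized count over the sum of all genes of that retina. Depth was estimated from the step between low values, and only 51.7 to 64.4% of those lay within 5% of a whole read, so no count test was run. Identifiers were paired with symbols for 18974 of 19859 genes through a table of gene names, many of them in the form of the human gene, and no coordinates were printed because the gene annotation at hand is of another assembly, GRCz12tu. Its order of the mitochondrial genes was used. Near-copies of mitochondrial genes in the nuclear genome were not examined.

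Differences were tested with limma 3.58.1 in R 4.3.3 on the deposited values (mean-variance trend, two-sided, Benjamini-Hochberg adjustment over the 19751 genes that exceeded the lowest value in 7 or more retinas, 108 left out), with a threshold of 0.05. Calls were made at this threshold throughout. Confidence intervals are at 95%. Shares and fractions were tested with an exact two-sided permutation test over 3432 arrangements, unadjusted. The permutation and limma scripts were tested on simulated data. P-values weigh the difference between genotypes against the variation between these retinas.

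The genes named are the 6 described, the 4 most correlated with their mean, and genes of lists of complex I, nuclear subunits, assembly factors, and mitochondrial RNA and DNA replication. These genes and lists were chosen with earlier results of these data known. Alternatives changed the gene filter, variance model, scaling, sample weights, denominator, test, replicate block and the retinas included. A covariate for genes at the lowest value and leaving out sets of 2 and 3 *chmru848* retinas were added after seeing the data.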

Additional observations from a re-analysis of the deposited data

Results flagged for a closer look

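In 3 of 32 groups of 7 retinas examined, a single retina lay far from the other 6 relative to the range of its group, a pattern that chance gives in about 1 in 20 groups. *chmru848* replicate 6 had an *mt-co2* share of 1.76%, against 0.675 to 1.1% in the other *chmru848* retinas. The same retina had an *mt-co3* share of 1.60%, against 0.587 to 0.990%, and it also had the largest share of ENSDARG00000080337, 36.6%. In wt replicate 7, *mt-co2* made up 24.9% of the 5 genes, against 26.9 to 28% in the other wt retinas.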

How the results depend on the processing

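Of 432 values recomputed for 19 results under alternatives, 402 were labelled the same. For tested differences the label means the same direction and side of the threshold. Gene counts and the summed share have no p. Counts were labelled by a fold limit, and the summed share by whether its difference moved less than the larger group SD. So the summed share was labelled the same although its difference went from 1.04 to 2.08 percentage points with another denominator. The *mt-atp6* share and fraction kept their direction and side of the threshold under every alternative run. Most of these left out retinas, which cannot undo a complete separation. With the genes of this group and the 10 most abundant genes out of the denominator, the share passed (exact permutation p = 0.00233), but the groups overlapped. Quantile normalization raised the differences of *mt-co1* (1.37), *mt-co2* (1.1), *mt-co3* (1.04) and *mt-cyb* (0.85) past the threshold, so that 5 genes were called. With a covariate for genes at the lowest value, *mt-atp6* (0.85) lost its call and 0 genes were called by limma. Without the 2 *chmru848* retinas with most ENSDARG00000080337, *mt-atp6* (0.67) lost its call, 0 genes were called by limma, *mt-co2* (-0.094) and *mt-co3* (-0.088) reversed, and the *mt-co1* share difference was 0.255 percentage points, past the threshold no longer. Without the 3 *chmru848* retinas with most genes at the lowest value, the *mt-co1* share (0.293) and the fractions of *mt-co2* (-1.49) and *mt-co3* (-0.89) lost theirs, as did the fraction of *mt-co3* in a rank-sum test (-3.12). With the most abundant gene of the group left out, the fraction of *mt-cyb* (-2.48) passed. The cause was not tested in any of these. Leaving out each retina in turn gave differences of 0.281 to 0.409 (*mt-co1* share) and 0.0802 to 0.150 (*mt-cyb* share, past the threshold without *chmru848* replicate 2), and -3.22 to -1.94 for the *mt-co3* fraction, which lost its side of the threshold without any of *chmru848* replicates 1 to 4 or wt replicates 1, 3, 5 and 7. The *mt-atp6* difference stayed called in all of these (0.84 to 1.13, adjusted p 0.00606 to 0.0324, limma). The labels name no pairing of same-numbered retinas. Correlations between them were -0.116 to 0.101, which cannot show whether they were handled together. With a replicate block *mt-atp6* kept its call (1.0, adjusted p = 0.0221, limma) and no call of the 5 genes changed. The number of reads alone does not limit these abundant genes, but without the *mt-atp8* row the border with *mt-atp6* cannot be resolved.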
